A study of Mus musculus with 30 samples.

Results

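The 9 genes described here encode NRF2, its inhibitor KEAP1 and 7 enzymes and transporters of the glutathione and antioxidant response that NRF2 is known to control. They were read from a count table of 39676 gene identifiers by their symbols (Nfe2l2, Keap1, Gclm, Gclc, Nqo1, Hmox1, Srxn1, Slc7a11 and Gsr), and all 9 were listed. Because the genes were selected on earlier results of the same tumors, their differences between tumor types are given as a description, with no test. All 9 passed the filter on low counts, a mean of 10 or more over the tumors, as did 15926 genes in all.

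RNA was sequenced from 30 whole tumors taken on day 8 after inoculation of B16 melanoma cells under the skin of female C57BL/6 mice. The B16 line came from a mouse melanoma, and all 3 lines used here carried retroviral genes for the herpes simplex glycoprotein gB with a cyan fluorescent marker and for firefly luciferase. The B16-IFNA4 and B16-IFNA9 lines also expressed IFNα4 or IFNα9, each with GFP from the viral long terminal repeat, while B16-GFP cells carried GFP without an interferon. Each type had 10 tumors, which the labels number as biological replicates. The cells were sorted as GFP+ CFP+ populations after transduction, and the interferon gene was under the viral and not its natural promoter. The study's methods give a usual age range for its mice, and the labels give no age for single animals.

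Total counts per tumor ran from 14598517 to 19788383. Ifna4 had 81 to 188 counts in each B16-IFNA4 tumor and 0 in the other 20, and Ifna9 had 55 to 148 counts in each B16-IFNA9 tumor and 0 in the other 20, so both transgenes matched the labels. The summed CPM of the 3 melanocyte markers that were listed (Tyr, Tyrp1 and Mitf) ranged from 7224 to 22850 in B16-GFP, 2160 to 3635 in B16-IFNA4 and 3371 to 8928 in B16-IFNA9 tumors. The 4 leukocyte markers summed to 108 to 424, 678 to 1375 and 497 to 993 CPM in the same order. In whole tumors, fewer cells of a type and less RNA per cell cannot be told apart. B16-GFP tumor 7 had the highest melanocyte sum, the lowest leukocyte, macrophage, T and NK cell, neutrophil, fibroblast, endothelial and keratinocyte sums of the B16-GFP tumors and the lowest scaling factor of the 30 libraries (0.768), so a number of values are also given without it.

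NRF2, encoded by Nfe2l2, is a transcription factor that KEAP1 holds in the cytoplasm and hands to a CUL3 ubiquitin ligase for degradation. Oxidants and electrophiles modify KEAP1, after which NRF2 accumulates, pairs with small MAF proteins and binds antioxidant response elements in the promoters of its target genes. Much of this control acts on the protein, so the mRNA level of Nfe2l2 is not a measure of NRF2 activity. Glutathione, the tripeptide that NRF2 targets make and recycle, buffers oxidants in tumor cells, in melanocytes during pigment synthesis and in myeloid cells during inflammation.

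Levels are given as CPM, counts brought to a common library size with the trimmed mean of M-values (TMM). Between genes, levels were compared only as CPM per kilobase of exon sequence, the union of the exons of each gene in GENCODE M21. On that scale Hmox1 was the highest of the 9 genes in every type, with 138 ± 40.2 in B16-GFP, 80.0 ± 15.7 in B16-IFNA4 and 103 ± 20.9 in B16-IFNA9 tumors (SD, n = 10 each). Nfe2l2 came second at 45.1, 52.9 and 55.7 CPM per kilobase, followed by Srxn1 at 29.9, 29.1 and 26.0. Nqo1 was the lowest in every type at 4.24, 5.22 and 4.62. The tumors of Hmox1 did not overlap with those of Nfe2l2, nor those of Nfe2l2 with those of Srxn1, within any type. Slc7a11 lay in position 4 in B16-GFP tumors at 25.8 CPM per kilobase, where its tumors overlapped with those of Srxn1 above and Gsr below. It lay in position 6 in B16-IFNA4 tumors at 13.9, overlapping with Gsr above (14.3) but not with Keap1 below. In B16-IFNA9 tumors it lay in position 5 at 16.7 and overlapped with Gclc above (17.3) and Gsr below (14.8). Gclm and Keap1 overlapped in B16-GFP (7.20 and 7.07) and B16-IFNA9 tumors (8.57 and 8.94) but not in B16-IFNA4 tumors, where Gclm was at 5.97 and Keap1 at 9.98 CPM per kilobase.

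**Figure D1:**
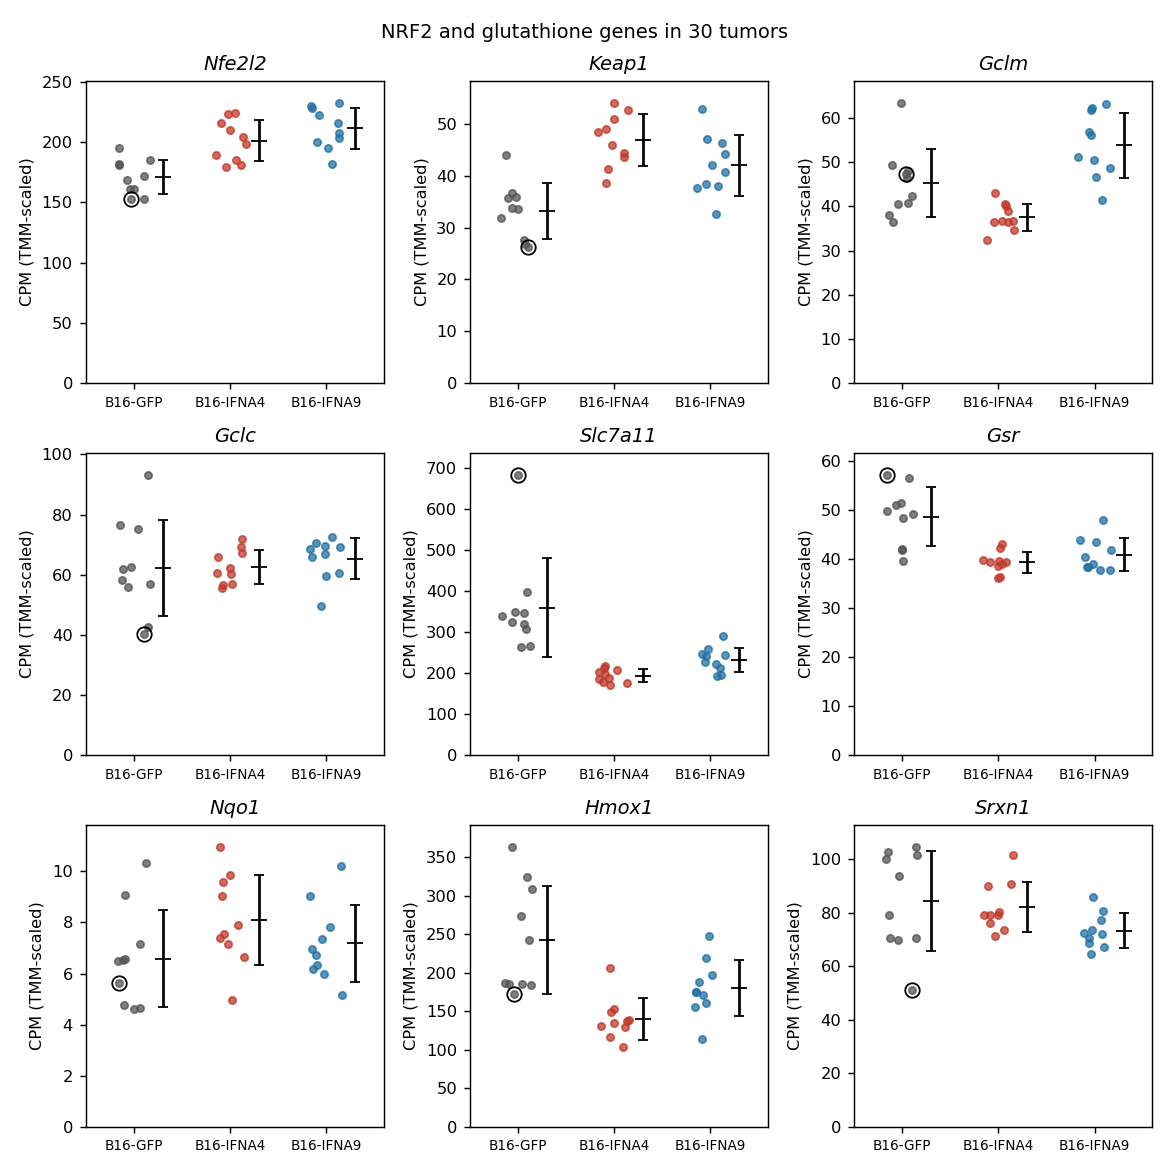
TMM-scaled CPM of each of the 9 genes in each of the 30 tumors (vertical axes start at 0 and differ between panels), by tumor type. Points are tumors, the bar beside each group is the mean with 1 SD (n = 10), and the ring marks B16-GFP tumor 7. For Slc7a11 all B16-IFNA4 tumors, at 170 to 217 CPM, lie below all B16-GFP tumors, at 264 to 683 CPM, while every other gene shows overlap between each pair of types.

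Of the 9 genes, 6 were past the threshold of the fit (adjusted p under 0.05 over all genes tested) in B16-IFNA4 against B16-GFP tumors, 2 with a higher and 4 with a lower mean, where 65.4% of all genes tested were past it, 31.3% higher and 34.1% lower. In B16-IFNA9 against B16-GFP tumors, 6 of 9 were past it, 3 in each direction, against 55.7% of all genes, 26.9% higher and 28.9% lower. Between the interferon types, Gclm alone of the 9 genes was past it, with a higher mean in B16-IFNA9 tumors, against 17.8% of all genes, 10.5% higher and 7.25% lower. That count of 1 was 3 in a fit of only the 20 tumors compared, 2 with library totals or filterByExpr, and 2 without any one of B16-GFP tumors 1, 2 and 7, B16-IFNA4 tumor 6 and B16-IFNA9 tumors 1, 5 and 9, with Hmox1 or Slc7a11 or both added. Tumors of the types did not overlap for 1 of 9 genes, Slc7a11, in B16-IFNA4 against B16-GFP, where 18.5% of all genes did not overlap. The count was 0 in B16-IFNA9 against B16-GFP and 0 between the interferon types, where the shares over all genes were 7.79% and 2.83%. The median log2 fold change of the 9 genes was −0.04, 0.07 and 0.06 in the 3 comparisons, beside 0.01, −0.00 and −0.01 for all genes tested. Nothing is read from these counts about the 9 genes, since the same contrasts were known when they were selected. The comparisons with B16-GFP share those 10 control tumors.

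Nfe2l2 (ENSMUSG00000015839.6, chr2:75675513-75704641 of GRCm38, minus strand) was at 153 to 195 CPM in B16-GFP (median 170), 179 to 224 in B16-IFNA4 (median 201) and 182 to 232 in B16-IFNA9 tumors (median 212). All 10 tumors of each interferon type were above the B16-GFP median, and the ranges of each pair of types overlapped, those of the interferon types over most of their extent. The log2 fold change against B16-GFP was 0.23 ± 0.06 (SE) in B16-IFNA4 and 0.31 ± 0.06 in B16-IFNA9 tumors, and 0.07 ± 0.06 between the interferon types. The annotated gene also contains a small nuclear RNA, Gm24996, on the same strand.

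Keap1 (ENSMUSG00000003308.15, chr9:21229730-21239361, minus strand) encodes the adaptor that senses electrophiles and marks NRF2 for degradation. Its levels ran from 26.2 to 44.0 CPM in B16-GFP (median 33.7), 38.6 to 53.9 in B16-IFNA4 (median 47.2) and 32.6 to 52.9 in B16-IFNA9 tumors (median 41.4). All 10 B16-IFNA4 tumors and 9 of 10 B16-IFNA9 tumors were above the B16-GFP median. The mean was higher than in B16-GFP tumors by 0.50 ± 0.09 on the log2 scale in B16-IFNA4 and 0.34 ± 0.09 in B16-IFNA9 tumors, so the genes for the factor and for its inhibitor both had higher means in the interferon types. An antisense gene, Gm16754, overlaps Keap1, and the strand setting of the counting is not given in the sources used here.

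Slc7a11 (ENSMUSG00000027737.10, chr3:49892526-50443614, minus strand) encodes xCT, the light chain of the cystine/glutamate antiporter that brings in cystine for glutathione synthesis and, in melanocytes, for pheomelanin. It was at 264 to 683 CPM in B16-GFP tumors with a median of 331, at 170 to 217 in B16-IFNA4 tumors with a median of 193 and at 194 to 290 in B16-IFNA9 tumors with a median of 234. Every B16-IFNA4 tumor lay below every B16-GFP tumor, and the B16-IFNA9 tumors lay between, overlapping with both. The mean was 1.86-fold lower in B16-IFNA4 (log2 fold change −0.89 ± 0.12) and 1.54-fold lower in B16-IFNA9 tumors (−0.63 ± 0.12) than in B16-GFP tumors. Between the interferon types, the difference was 0.27 ± 0.12, and all 10 B16-IFNA9 tumors were above the B16-IFNA4 median.

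The highest value, 683 CPM, belonged to B16-GFP tumor 7, and the next tumor of that type was at 398 CPM. Without tumor 7 the B16-GFP mean was not 360 ± 120 but 324 ± 41.7 CPM (SD, n = 9), and the log2 fold changes were −0.72 and −0.47. The difference of B16-IFNA9 from B16-IFNA4 was then 0.26 and past the threshold. The 3 listed melanocyte markers were lower in the interferon types (median log2 fold change −1.24 in B16-IFNA4 and −0.97 in B16-IFNA9 tumors), and their part in the Slc7a11 values was not tested. Of all 50-base stretches in the transcripts of Slc7a11, 0.618% also occur in other genes.

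Promoter windows were found in the RefSeq table (build GRCm38.p6) for 6 of the 9 genes, and Gclc, Hmox1 and Gsr had none. Each window holds 250 bases before and 50 bases after the annotated start site. The antioxidant response element core TGACNNNGC was searched on both strands and was present in 3 of the 6 windows, those of Nfe2l2, Gclm and Srxn1. Over all 32851 windows in the table, 12.4% held it, and over the windows of genes tested, 13.9%. After these sequences had been seen, the related form TGAGNNNGC, present in 17.6% of all windows, and the core TGATGCAA of the amino acid response element, to which ATF4 binds and which was present in 0.895% of all windows, were searched in the same way. TGAGNNNGC was in the windows of Slc7a11 and Srxn1. A match describes letters and not a bound site.

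The 250 bases upstream of Slc7a11 are shown because this gene alone of the 9 had no overlap between B16-IFNA4 and B16-GFP tumors and because its window alone of the 6 held the amino acid response element core. That core occurs once on each strand, starting 66 and 47 bases before the start site, and a TGAGNNNGC form lies on the other strand 97 bases before it. Capitals mark these 3 matches, and the sequence, chr3:50443614-50443863 on the minus strand, reads 5′ to 3′ toward the start site.
Slc7a11: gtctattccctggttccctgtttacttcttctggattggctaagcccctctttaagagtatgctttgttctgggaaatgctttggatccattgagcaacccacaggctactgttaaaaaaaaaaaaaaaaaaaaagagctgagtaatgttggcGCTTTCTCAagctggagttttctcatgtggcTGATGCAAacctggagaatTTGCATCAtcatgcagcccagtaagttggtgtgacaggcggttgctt

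Gclc and Gclm encode the catalytic and the modifier subunit of glutamate-cysteine ligase, the rate-limiting enzyme of glutathione synthesis, and the levels of their mRNAs differed in pattern. Gclc (ENSMUSG00000032350.9, chr9:77754535-77794485, plus strand) was at 40.1 to 93.1 CPM in B16-GFP tumors (median 60.1), 55.6 to 71.9 in B16-IFNA4 (median 61.4) and 49.6 to 72.5 in B16-IFNA9 tumors (median 67.8). The ranges of the interferon types lay inside that of B16-GFP. Its log2 fold changes were 0.01 ± 0.11, 0.07 ± 0.11 and 0.06 ± 0.11 for B16-IFNA4 and B16-IFNA9 against B16-GFP and for B16-IFNA9 against B16-IFNA4. The first of these turned sign under 14 alternatives.

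Gclm (ENSMUSG00000028124.15, chr3:122245557-122270732, plus strand) was at 36.5 to 63.3 CPM in B16-GFP tumors with a median of 44.4, at 32.4 to 43.0 in B16-IFNA4 tumors with a median of 36.6 and at 41.5 to 63.2 in B16-IFNA9 tumors with a median of 53.7. All 10 B16-IFNA4 tumors were below the B16-GFP median, 9 of 10 B16-IFNA9 tumors were above it, and all 10 B16-IFNA9 tumors were above the B16-IFNA4 median. The log2 fold change was −0.27 ± 0.09 in B16-IFNA4 and 0.25 ± 0.09 in B16-IFNA9 tumors against B16-GFP, and 0.52 ± 0.09 for B16-IFNA9 against B16-IFNA4. The mean of B16-GFP tumors lay between those of the interferon types. With library totals in place of TMM, the B16-IFNA4 value was −0.20 and no longer past the threshold. Of its 50-base stretches, 3.92% also occur elsewhere, among them Ppia and its copies, and Gm6061 and Gm17494 overlap it.

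The windows of Gclm and Nfe2l2 each held 1 TGACNNNGC match, shown with 10 bases on either side because both genes differed between types. In Nfe2l2 the match (chr2:75704895-75704903) starts 240 bases before the start site, on the strand of the gene. In Gclm (chr3:122245423-122245431) it starts 134 bases before the start site and reads TGACGGTGC on the other strand. Both contexts are written 5′ to 3′ in gene orientation, with the match in capitals.
Nfe2l2: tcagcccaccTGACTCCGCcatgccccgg
Gclm: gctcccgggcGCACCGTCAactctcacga

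Gsr (ENSMUSG00000031584.16, chr8:33652523-33698163, plus strand) encodes glutathione reductase, which uses NADPH to return oxidized glutathione to its reduced form. It was at 39.5 to 57.1 CPM in B16-GFP tumors (median 49.5), 36.2 to 43.1 in B16-IFNA4 (median 39.4) and 37.6 to 48.0 in B16-IFNA9 tumors (median 39.7). All tumors of both interferon types were below the B16-GFP median. The mean was 1.24-fold lower in B16-IFNA4 (−0.31 ± 0.07) and 1.19-fold lower in B16-IFNA9 tumors (−0.25 ± 0.07), and the interferon types differed by 0.06 ± 0.07. With library totals in place of TMM the B16-IFNA9 value was −0.15, no longer past the threshold.

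Hmox1 (ENSMUSG00000005413.8, chr8:75093621-75100589, plus strand) encodes heme oxygenase 1, which breaks down heme and is abundant in macrophages that clear red blood cells. Its levels were 172 to 363 CPM in B16-GFP tumors with a median of 214, 103 to 206 in B16-IFNA4 tumors with a median of 136 and 113 to 248 in B16-IFNA9 tumors with a median of 175. No B16-IFNA4 tumor and 2 of 10 B16-IFNA9 tumors were above the B16-GFP median. The mean was 1.73-fold lower in B16-IFNA4 (−0.79 ± 0.14) and 1.35-fold lower in B16-IFNA9 tumors (−0.43 ± 0.14) than in B16-GFP tumors, and B16-IFNA9 was above B16-IFNA4 by 0.36 ± 0.14. That last value was past the threshold, at 0.39 to 0.45, without B16-GFP tumor 1 or 2, B16-IFNA4 tumor 6 or B16-IFNA9 tumor 1, 5 or 9. Library totals in place of TMM gave −0.33 for B16-IFNA9, no longer past the threshold.

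The 5 erythroid markers were also lower in the interferon types than in B16-GFP tumors. Their summed CPM was 545 to 3019 in B16-GFP, 184 to 900 in B16-IFNA4 and 130 to 620 in B16-IFNA9 tumors, and all 5 fell in both interferon types. Between the interferon types none of the 5 passed the threshold, with a mean sum of 345 ± 232 CPM in B16-IFNA4 and 288 ± 154 in B16-IFNA9 tumors (SD, n = 10 each). The 5 listed macrophage markers summed to 368 to 1659, 783 to 1365 and 823 to 1536 CPM, but did not move alike. Mrc1 had means of 322 ± 115 CPM in B16-GFP, 188 ± 47.6 in B16-IFNA4 and 312 ± 91.3 in B16-IFNA9 tumors (SD, n = 10 each), and was past the threshold, like Hmox1, as lower in B16-IFNA4 than in B16-GFP tumors, and also as lower in B16-IFNA4 than in B16-IFNA9 tumors. Cd68 had means of 119 ± 50.5, 173 ± 36.3 and 162 ± 29.6 CPM and was past it as higher in both interferon types. Csf1r, C1qa and C1qb were not past it in any comparison. No marker was at 0 in every tumor, and the part of these cells in the Hmox1 values was not tested.

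Srxn1 (ENSMUSG00000032802.8, chr2:152105516-152111376, plus strand) encodes sulfiredoxin, which repairs overoxidized peroxiredoxins. It was at 51.1 to 105 CPM in B16-GFP tumors (median 86.4), 71.4 to 102 in B16-IFNA4 (median 79.1) and 64.4 to 86.0 in B16-IFNA9 tumors (median 72.4). No B16-IFNA9 tumor was above the B16-GFP median. The log2 fold change was −0.04 ± 0.10 in B16-IFNA4 and −0.20 ± 0.10 in B16-IFNA9 tumors, neither past the threshold. Its lowest value belonged to B16-GFP tumor 7, without which the B16-IFNA9 value was −0.26 and past the threshold.

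The 250 bases upstream of Srxn1 are shown as the window of the 6 with the most matches to the antioxidant element forms. TGAGNNNGC occurred 158 bases before the start site on the other strand and 45 bases before it on the strand of the gene, and the latter, TGAGTCAGC, also contains the AP-1 site TGAGTCA. Another match, TGACCTAGC, lies after the start site and is not shown. Capitals mark the upstream matches in chr2:152105274-152105523, plus strand.
Srxn1: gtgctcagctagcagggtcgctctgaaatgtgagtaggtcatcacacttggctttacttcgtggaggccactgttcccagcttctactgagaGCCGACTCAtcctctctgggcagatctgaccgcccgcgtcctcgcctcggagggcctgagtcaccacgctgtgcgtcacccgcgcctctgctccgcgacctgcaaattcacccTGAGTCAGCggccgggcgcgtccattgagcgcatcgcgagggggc

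Nqo1 (ENSMUSG00000003849.8, chr8:107388225-107403206, minus strand) encodes a quinone reductase often used as a readout of NRF2. It was low, at 4.62 to 10.3 CPM in B16-GFP tumors (median 6.52), 4.96 to 11.0 in B16-IFNA4 (median 7.74) and 5.17 to 10.2 in B16-IFNA9 tumors (median 6.85), and the 3 ranges nearly coincided. Above the B16-GFP median were 9 of 10 B16-IFNA4 and 6 of 10 B16-IFNA9 tumors. The log2 fold changes were 0.30 ± 0.15, 0.12 ± 0.15 and −0.17 ± 0.15 for B16-IFNA4 and B16-IFNA9 against B16-GFP and for B16-IFNA9 against B16-IFNA4. None was past the threshold, although the B16-IFNA4 value was past it at 0.38 with library totals, at 0.39 without B16-GFP tumor 3 and at 0.36 without B16-IFNA4 tumor 1.

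**Figure D2:**
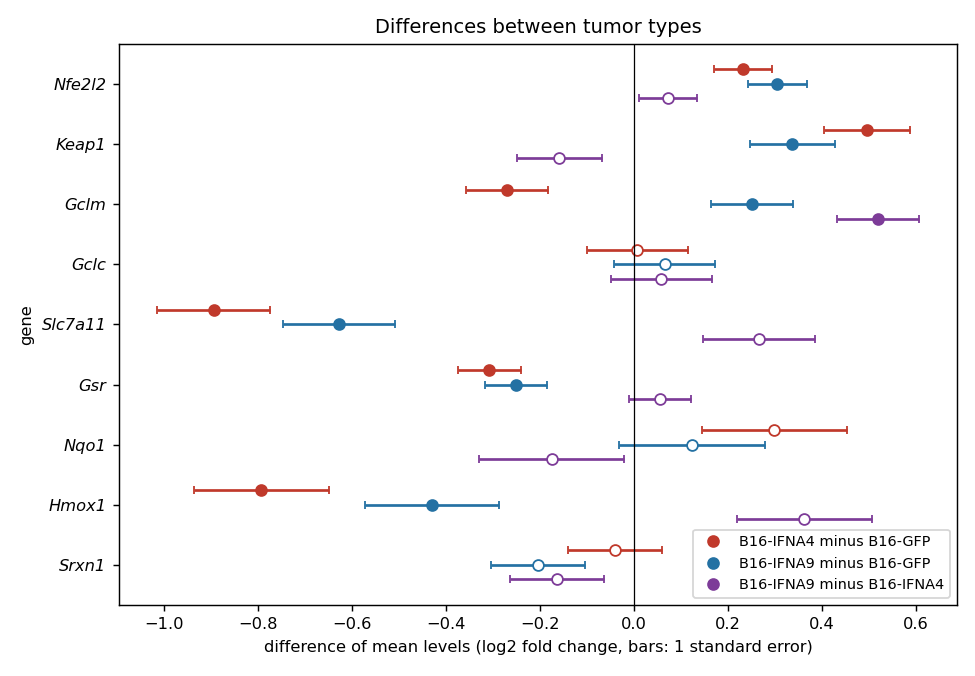
Log2 fold change (horizontal axis, bars 1 SE) of each of the 9 genes in the 3 comparisons of tumor types, n = 10 per type. Filled points were past the adjusted threshold of 0.05. Nfe2l2 and Keap1 lie right of 0 and Slc7a11, Gsr and Hmox1 left of 0 in both comparisons with B16-GFP, while Gclm lies on opposite sides, at −0.27 and 0.25.

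The tumors of B16-GFP were the most dispersed. The coefficient of variation of CPM was larger in B16-GFP than in B16-IFNA4 tumors for 8 of 9 genes and larger than in B16-IFNA9 tumors for 9 of 9, and without tumor 7 for 8 of 9 in each case. For Slc7a11 it was 33.4% in B16-GFP tumors, 12.9% without tumor 7, 8.34% in B16-IFNA4 and 12.6% in B16-IFNA9 tumors. For Gclc it was 25.6%, 22.8%, 9.09% and 10.5% in the same order.

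Within types, the 9 genes did not vary as a block. Over the 30 tumors centred within type, Pearson's r of log2 CPM was above 0 for 15 of the 36 pairs and ran from −0.47 to 0.59, with a median of −0.06. These correlations are a description, and the 2 values of a pair in a tumor come from the same library and share its scaling. The highest was Keap1 with Hmox1 at 0.59 (0.55 without B16-GFP tumor 7, 29 tumors). The 2 subunit genes Gclm and Gclc had an r of 0.48 (0.60 without it), and Slc7a11 with Gsr 0.49 (0.34). Gclc with Slc7a11 was the lowest at −0.47, and −0.17 without tumor 7. Leaving out that tumor turned the sign of 8 of the 36 pairs, among them Srxn1 with Slc7a11, from −0.28 to 0.38.

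Relations within each type, which the selection of the genes did not use, were tested over 10 tumors for Nqo1 with each other gene and for Ptprc, the leukocyte marker CD45, and the mean of the melanocyte markers with each gene. Of the 78 relations, 1 passed after Benjamini-Hochberg adjustment. In B16-IFNA9 tumors Slc7a11 rose with the melanocyte markers, with Pearson's r = 0.89 (permutation test with 100000 resamples, two-sided, p = 0.00043, adjusted p = 0.0335) and Spearman's rho = 0.82 (permutation p = 0.00568, adjusted p = 0.148), and r was 0.75 without the 2 tumors farthest from the median marker level. For the same relation in B16-GFP tumors r was 0.83 and rho 0.66 (adjusted permutation p = 0.184 and 0.363), with r = 0.43 without tumors 7 and 10. In B16-IFNA4 tumors r was 0.69 and rho 0.68 (adjusted permutation p = 0.242 and 0.363), with r = 0.34 without tumors 8 and 10. With Ptprc, Slc7a11 had an r of −0.89 and a rho of −0.65 in B16-GFP tumors (adjusted permutation p = 0.128 and 0.363), and r was −0.72 without tumors 2 and 7. In B16-IFNA9 tumors the same r was −0.41 and rho −0.54 (adjusted permutation p = 0.661 and 0.522), with r = −0.49 without tumors 2 and 5. In B16-IFNA4 tumors r was 0.08 and rho 0.10 (adjusted permutation p = 0.922 and 0.903), with r = −0.08 without tumors 1 and 8. Nfe2l2 had an r of 0.77 and a rho of 0.87 with Ptprc in B16-GFP tumors (adjusted permutation p = 0.053 and 0.148), and r was 0.78 without tumors 2 and 7. In B16-IFNA9 tumors this r was 0.59 and rho 0.30 (adjusted permutation p = 0.354 and 0.806), with r = 0.13 without tumors 2 and 5. In B16-IFNA4 tumors r was 0.46 and rho 0.56 (adjusted permutation p = 0.648 and 0.507), with r = 0.69 without tumors 1 and 8. Srxn1 had an r of 0.84 and a rho of 0.83 with the melanocyte markers in B16-IFNA9 tumors (adjusted permutation p = 0.053 and 0.148), and r was 0.49 without tumors 6 and 10. In B16-GFP tumors the r of Srxn1 with these markers was −0.39 and rho 0.03 (adjusted permutation p = 0.661 and 0.959). In B16-IFNA4 tumors r was 0.003 and rho −0.15 (adjusted permutation p = 0.993 and 0.902). Nqo1 had an r of −0.50 to 0.42 with the other 8 genes, and none of its relations passed. Whether the relations differ between types was not tested.

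**Figure D3:**
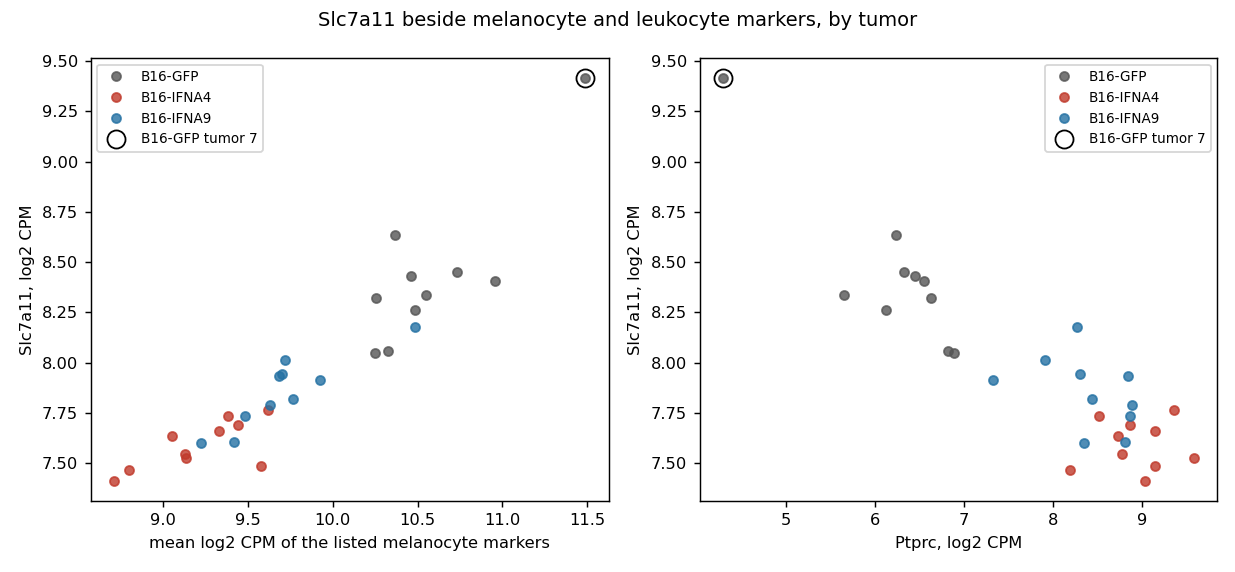
Log2 CPM of Slc7a11 (vertical axes) against the mean log2 CPM of Tyr, Tyrp1 and Mitf (left) and against log2 CPM of Ptprc (right), 1 point per tumor, coloured by type. The ring marks B16-GFP tumor 7, at 9.42 on the vertical axis. Within B16-IFNA9 tumors Slc7a11 rose with the melanocyte markers (r = 0.89, n = 10).

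The other genes of the pathway were taken from 10 lists of textbook members, 126 genes of which 107 were listed and tested. The lists were chosen with earlier results of these tumors known, so their counts carry no test of a list, and nothing particular to a list is read from them. In B16-IFNA4 against B16-GFP tumors, 20 of the 107 rose and 50 fell (65.4% in all), beside 31.3% higher and 34.1% lower and 65.4% in all over all genes tested, with a median log2 fold change of −0.27 beside 0.01 for all genes. In B16-IFNA9 against B16-GFP tumors, 12 rose and 52 fell, 59.8% in all, beside 26.9% higher, 28.9% lower and 55.7% in all over all genes, with a median of −0.25 beside −0.00. Between the interferon types 7 rose and 7 fell, 13.1% in all, beside 17.8% of all genes, 10.5% higher and 7.25% lower. That count of 14 was 8 without B16-IFNA9 tumor 10, 21 without B16-GFP tumor 7 and 23 in a fit of only the 20 tumors compared. With library totals in place of TMM, the rises in B16-IFNA9 numbered 19 and the share of all called genes that were higher went from 48.2% to 58.3%. Without B16-GFP tumor 7 the counts against B16-GFP were 21 and 49 for B16-IFNA4 and 14 and 48 for B16-IFNA9. The shares of all genes given here are the background for the count of every list that follows. Each p below is from edgeR's quasi-likelihood test, adjusted by the Benjamini-Hochberg procedure over all 15926 genes.

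**Figure D4:**
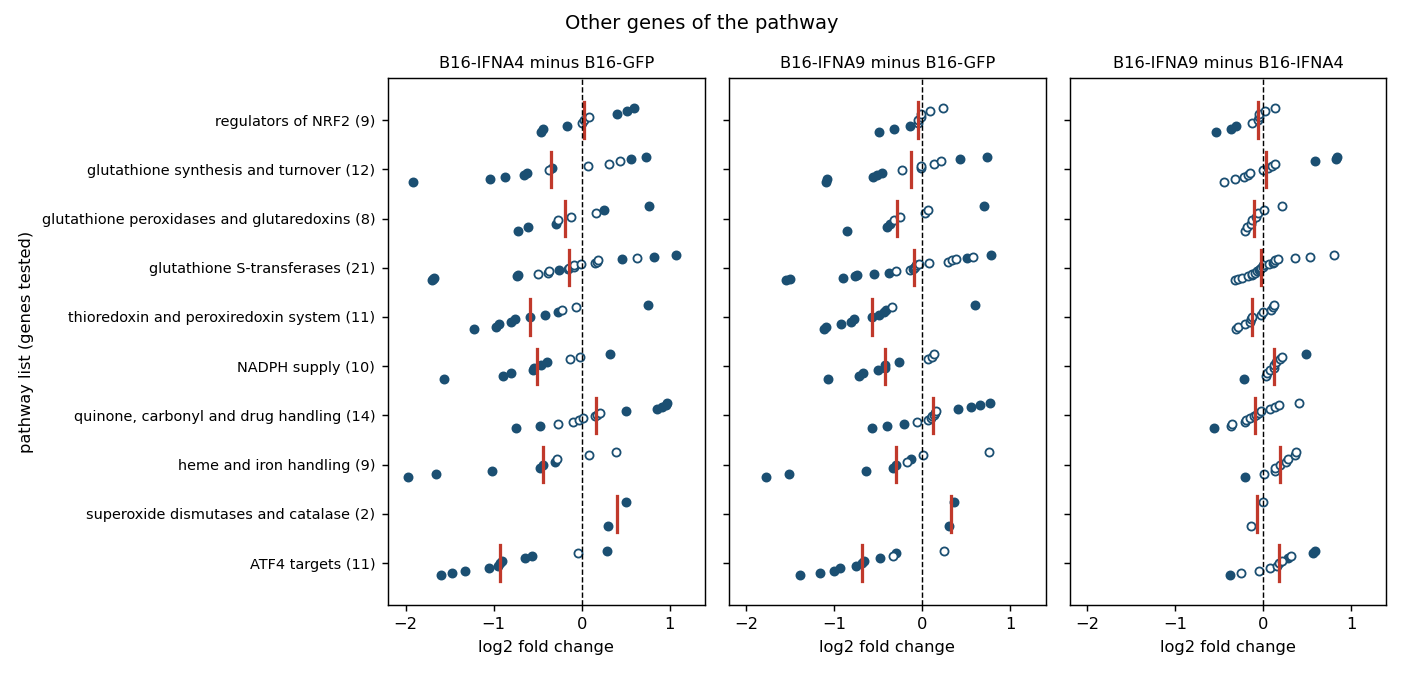
Log2 fold change (horizontal axes) of the 107 other pathway genes by list (rows, with the number of genes tested), in the 3 comparisons. Filled points passed the adjusted threshold of 0.05, red bars are list medians and the dashed line is the median of all genes tested. The lists of ATF4 targets and of the thioredoxin system lie mostly left of 0 against B16-GFP, with medians of −0.93 and −0.58 in B16-IFNA4 tumors.

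Among 9 regulators of NRF2, 3 rose and 3 fell in B16-IFNA4 tumors and 0 rose and 3 fell in B16-IFNA9 tumors against B16-GFP. Bach1, the heme-sensitive repressor that competes with NRF2 for antioxidant elements, went from 87.8 ± 21.6 CPM (SD, n = 10) in B16-GFP to 133 ± 11.3 in B16-IFNA4 tumors, by 0.60 ± 0.12 on the log2 scale (adjusted p = 0.000105, and 0.52 without B16-GFP tumor 7). Sqstm1, whose protein p62 draws KEAP1 into autophagy, fell by 0.46 ± 0.10 (adjusted p = 0.000361), or by 0.39 without that tumor. In B16-IFNA9 tumors Pgam5, a mitochondrial phosphatase that binds KEAP1, had the largest fall, −0.49 ± 0.09 (adjusted p = 5.42e-05, and −0.39 without B16-GFP tumor 7). Between the interferon types, 3 regulators were lower in B16-IFNA9, led by Mafk, a small MAF partner of NRF2 and BACH1, at 42.6 ± 6.20 CPM in B16-IFNA4 and 29.4 ± 4.87 in B16-IFNA9 tumors (−0.53 ± 0.11, adjusted p = 0.000912).

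Of the 12 genes of glutathione synthesis and turnover, 2 rose and 6 fell in B16-IFNA4 and 2 rose and 5 fell in B16-IFNA9 tumors. Cth, which makes cysteine from cystathionine, was low, at 5.58 ± 4.43 CPM in B16-GFP and 1.46 ± 0.272 in B16-IFNA4 tumors (−1.92 ± 0.28, adjusted p = 8.47e-07, and −1.54 without B16-GFP tumor 7). It was higher in B16-IFNA9 than in B16-IFNA4 tumors by 0.84 ± 0.28 (adjusted p = 0.0345), a call lost without filtering of low counts and without B16-IFNA4 tumor 2, 5, 6 or 7 or B16-IFNA9 tumor 5 or 10. Chac1, which degrades glutathione, fell in B16-IFNA9 tumors by 1.09 ± 0.25 (adjusted p = 0.000613), or by 0.92 without B16-GFP tumor 7. Anpep, the peptidase that cuts the cysteinylglycine released from glutathione outside the cell, rose by 0.73 ± 0.17 in both interferon types (adjusted p = 0.000475 and 0.000628). Without B16-GFP tumor 7, which held the lowest value of that type, 18.9 CPM, the rises were 0.63 and 0.62.

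The 8 glutathione peroxidases, glutaredoxins and related genes had 2 rises and 3 falls in B16-IFNA4 and 1 rise and 3 falls in B16-IFNA9 tumors. Glrx, a cytosolic glutaredoxin, rose by 0.76 ± 0.12 and 0.70 ± 0.12 (adjusted p = 1.91e-06 and 1.21e-05). Gpx4, which reduces lipid peroxides with glutathione, fell by 0.72 ± 0.15 and 0.86 ± 0.15 (adjusted p = 0.000139 and 2.63e-05), or by 0.56 and 0.71 without B16-GFP tumor 7, with 34.7% of its 50-base stretches shared with other genes. Of the 21 glutathione S-transferases, 3 rose and 6 fell in B16-IFNA4 and 2 rose and 7 fell in B16-IFNA9 tumors. Gsta4, which conjugates lipid aldehydes, had the largest fall in B16-IFNA4 tumors (−1.70 ± 0.30, adjusted p = 1.36e-05) and Gsta2 in B16-IFNA9 tumors (−1.55 ± 0.28, adjusted p = 3.59e-05). Both were highest in B16-GFP tumor 7, and without it the values were −1.32 and −1.13. Gsta2 shares 49.8% of its stretches with its paralogs, so its value is uncertain. Mgst2, a microsomal member, rose by 1.07 ± 0.17 and 0.78 ± 0.17 (adjusted p = 1.98e-06 and 0.00022).

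In the thioredoxin and peroxiredoxin system, 8 of 11 genes fell and 1 rose in B16-IFNA4 tumors, and 9 fell and 1 rose in B16-IFNA9 tumors, where 34.1% and 28.9% of all genes were lower. Prdx1, a peroxiredoxin that NRF2 is known to control, was at 1241 ± 678 CPM in B16-GFP, 531 ± 62.5 in B16-IFNA4 and 574 ± 74.4 in B16-IFNA9 tumors, a log2 fold change of −1.22 ± 0.17 and −1.11 ± 0.17 (adjusted p = 3.83e-07 and 3.51e-06), or −0.94 and −0.84 without B16-GFP tumor 7, which held its highest value, 3104 CPM, and the highest melanocyte sum. The melanocyte markers fell in the same comparisons by a median of −1.24 and −0.97, and their part in the values of the thioredoxin and NADPH lists was not tested. Txnip, which binds and inhibits thioredoxin, was the gene that rose, by 0.76 ± 0.13 and 0.60 ± 0.13 (adjusted p = 1.56e-05 and 0.00037). Its lowest B16-GFP value, 173 CPM, was that of tumor 7, without which the rise in B16-IFNA9 was 0.53. Of the 10 genes of NADPH supply, 7 fell in each interferon type, against the same 34.1% and 28.9% of all genes, and 1 rose in B16-IFNA4. The mitochondrial isocitrate dehydrogenase Idh2 was at 211 ± 48.0 CPM in B16-GFP, 71.4 ± 11.7 in B16-IFNA4 and 100 ± 26.7 in B16-IFNA9 tumors, lower by −1.56 ± 0.14 and −1.07 ± 0.13 (adjusted p = 4.59e-11 and 1.34e-07) and higher in B16-IFNA9 than in B16-IFNA4 by 0.49 ± 0.13 (adjusted p = 0.0104). Nadk, which makes NADP from NAD, rose in B16-IFNA4 tumors by 0.32 ± 0.07 (adjusted p = 0.000165) and was lower in B16-IFNA9 than in B16-IFNA4 by −0.22 ± 0.07 (adjusted p = 0.0243), a call lost with library totals and without B16-IFNA4 tumor 10 or B16-IFNA9 tumor 4, 9 or 10.

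The list of quinone, carbonyl and drug handling genes was the largest one with more rises than falls, 5 and 2 of 14 in B16-IFNA4 and 4 and 3 in B16-IFNA9 tumors. The summed CPM of the 3 listed keratinocyte markers was 3278 ± 1192 in B16-GFP, 5485 ± 969 in B16-IFNA4 and 4279 ± 1347 in B16-IFNA9 tumors (SD, n = 10 each). Of these markers 2 were past the threshold as higher in B16-IFNA4 and 0 in B16-IFNA9 tumors, and their part in the values of this list was not tested. Aldh3a1, an aldehyde dehydrogenase, rose by 0.97 ± 0.24 and 0.77 ± 0.24 (adjusted p = 0.00083 and 0.00753), and Akr1b8, an aldo-keto reductase, fell by 0.75 ± 0.10 and 0.57 ± 0.10 (adjusted p = 4.02e-07 and 3.7e-05). Aldh3a1 and the keratinocyte sum were both lowest within their type in B16-GFP tumor 7, B16-IFNA4 tumor 3 and B16-IFNA9 tumor 10. Both were highest in tumor 5 among B16-GFP tumors, but in different tumors in each interferon type. Without B16-GFP tumor 7, at 5.18 CPM, the B16-IFNA9 value of Aldh3a1 was 0.65. Abcc3, a transporter of conjugates, was lower in B16-IFNA9 than in B16-IFNA4 tumors by −0.55 ± 0.17 (adjusted p = 0.0192). Both members of the superoxide dismutase and catalase list that were listed, Sod3 and Cat, rose in both interferon types. For Sod3, the extracellular enzyme, the values were 0.50 ± 0.16 (adjusted p = 0.00571) and 0.36 ± 0.16 (adjusted p = 0.0495), and the B16-IFNA9 call was lost without B16-GFP tumor 7 (0.28) and under 23 of 37 alternatives in all.

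Of the 9 genes of heme and iron handling, beside Hmox1, 6 fell and 0 rose in each interferon type, where 34.1% and 28.9% of all genes were lower. In each, 2 genes had a log2 fold change above 0 that was not past the threshold. One was Slc40a1, with medians of 14.1, 35.6 and 48.6 CPM in B16-GFP, B16-IFNA4 and B16-IFNA9 tumors, but 122 CPM in B16-GFP tumor 2. Tfrc, the transferrin receptor, was at 462 ± 348 CPM in B16-GFP, 118 ± 12.4 in B16-IFNA4 and 135 ± 27.5 in B16-IFNA9 tumors. The log2 fold changes were −1.97 ± 0.23 and −1.78 ± 0.22 (adjusted p = 1.13e-08 and 1.55e-07), or −1.58 and −1.39 without B16-GFP tumor 7, which held the highest value, 1421 CPM. The same tumor had the highest melanocyte sum, 22850 CPM, while the highest erythroid sum was that of B16-GFP tumor 3. The melanocyte and the erythroid markers both fell in both interferon types, and their part in the Tfrc values was not tested. Hmox2, the constitutive heme oxygenase, was lower in B16-IFNA9 than in B16-IFNA4 tumors by −0.21 ± 0.06 (adjusted p = 0.00803).

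The ATF4 target list, the amino acid response program that Slc7a11 is also known to belong to, had 9 falls and 1 rise among 11 genes in B16-IFNA4 tumors and 9 falls and 0 rises in B16-IFNA9 tumors, with medians of −0.93 and −0.68. Over all genes, 34.1% and 28.9% were lower. The 3 listed melanocyte markers fell in the same comparisons by a median of −1.24 and −0.97, and their part in the values of this list was not tested. Phgdh, the first enzyme of serine synthesis, was at 74.2 ± 30.7 CPM in B16-GFP, 24.5 ± 5.28 in B16-IFNA4 and 36.9 ± 12.1 in B16-IFNA9 tumors, with −1.60 ± 0.19 in B16-IFNA4 (adjusted p = 1.95e-08, and −1.40 without B16-GFP tumor 7) and a rise of 0.59 ± 0.19 from B16-IFNA4 to B16-IFNA9 (adjusted p = 0.0246), and 47.8% of its stretches occur in other genes. Trib3, a pseudokinase that feeds back on ATF4, had the largest fall in B16-IFNA9 tumors, −1.39 ± 0.21 (adjusted p = 3.32e-06, and −1.18 without B16-GFP tumor 7). Sesn2, a stress-induced sestrin, was the gene that rose in B16-IFNA4 tumors, by 0.29 ± 0.12 (adjusted p = 0.0441), a call lost under 21 of 37 alternatives. Slc7a5, an amino acid transporter, was lower in B16-IFNA9 than in B16-IFNA4 tumors by −0.37 ± 0.13 (adjusted p = 0.0419), a call lost under 17 of them. TGATGCAA was in the windows of 1 of the 13 matched genes of this list, and no part of ATF4 in the Slc7a11 values was tested.

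The genes whose levels varied most like the mean of the 9 within types, over 30 tumors centred within type, were Hic2 (r = 0.69), Rabl2 (0.65), Heatr6 (0.64), Slitrk2 (0.63) and Zfp109 (0.63). Those least like it were Smim14 (−0.63), Lipt1 (−0.63), Gm16701 (−0.62), Hs3st3a1 (−0.61) and 9430073C21Rik (−0.60). Without B16-GFP tumor 7 these correlations ran from 0.57 to 0.68 and from −0.67 to −0.56. They were the extremes over all other genes tested with 30 tumors, but without that tumor Heatr6, Zfp109, Smim14, Lipt1, Gm16701 and 9430073C21Rik ranked 54, 86, 30, 93, 112 and 39 in their direction, and the other 4 ranked 3 to 11. The correlations are a description.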

How the data were processed

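RNA of 30 whole tumors was sequenced by the authors with stranded mRNA libraries and single-end reads of 50 bases. Reads were checked with FastQC 0.11.3 and aligned with HISAT2 2.0.4, per the submitters' processing notes, which name the build mm10. The study's methods name mm11 and counting per gene with summarizeOverlaps. The annotation release, overlap mode and strand setting are not given in the sources used here, so overlapping, antisense and near-identical genes are uncertain. The deposited values are raw counts per gene and tumor. Of 39676 identifiers, 39495 were matched to GENCODE M21 (GRCm38) for symbols and coordinates.

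The 9 genes and the lists of other genes were chosen with earlier results of these data known. Counts were fitted with edgeR 4.0.16 in R 4.3.3 (quasi-likelihood test, TMM, mean of at least 10 counts, 30 tumors in 1 fit, Benjamini-Hochberg adjustment over 15926 genes, threshold 0.05). CPM are TMM-scaled, 2 prior counts were added for log2 CPM, and each SE was the absolute log2 fold change divided by the square root of F. Of the 45 pairs of columns within each type, none differed by less than sampling noise over 11436 genes. From the pathway lists, the called genes with the largest rise and fall in each list and comparison were named, with others marked as lists. Relations were tested by permutation in Python 3.11.15 with scipy 1.17.1. The fit was tested on simulated data. Alternatives were DESeq2 1.42.0, DESeq2 size factors, library totals, no filter, filterByExpr, only the 20 tumors compared, the replicate number as a block, and each tumor left out in turn. Maff, Rbx1, Btrc, Gpx2, Gpx8, Glrx5, Glo1, Gstt2, Gstz1, Txnrd1, Nqo2, Abcc4, Fth1, Fech, Sod1, Sod2, Atf4, Shmt2 and Ddit4 of the pathway lists, and some markers, were not analysed here. The marker lists for T and NK cells, neutrophils, fibroblasts, endothelial cells, keratinocytes and skeletal muscle summed to 2.23 to 137, 7.06 to 77.2, 1262 to 7172, 115 to 363, 679 to 7193 and 1113 to 13057 CPM over all tumors.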

Additional observations from a re-analysis of the deposited data

Results flagged for a closer look

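In each of the 27 combinations of gene and tumor type, the highest and lowest tumor was compared with the others by Dixon's gap criterion at 95%, which flags about 1 in 20 groups by chance, or 1.35 of 27. It marked 2. Slc7a11 in B16-GFP tumor 7 was at 9.42 log2 CPM, far above the other 9 tumors of that type at 8.05 to 8.64. Gclc in B16-IFNA9 tumor 5 was at 5.64 log2 CPM, below the other 9 at 5.90 to 6.18.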

How the results depend on the processing

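Counts of called genes kept within 1.5 times of the main count under all alternatives run, apart from those given here. In B16-IFNA9 against B16-GFP, library totals gave 19 rises among the pathway genes (main 12) and 1 lower member of the 9 genes (main 3, with Hmox1 and Gsr lost). Library totals moved the median log2 fold change of all genes from −0.00 to 0.10 there. Between the interferon types, the fit of only the 20 tumors compared gave 23 pathway genes, 12 higher and 11 lower (main 14, 7 and 7). Of the 9 genes, 3 were then called (main 1), Hmox1 and Slc7a11 in addition to Gclm, and 2 were called with library totals or with filterByExpr, all higher. Leaving out each tumor in turn, the pathway counts between the interferon types ran from 8 to 21 (higher 4 to 10, lower 4 to 11), with 8 without B16-IFNA9 tumor 10 and 21 without B16-GFP tumor 7, and 1 or 2 of the 9 genes were called, Slc7a11 being the added gene without B16-GFP tumor 7. Against B16-GFP, the pathway counts ran from 68 to 72 for B16-IFNA4 and from 57 to 64 for B16-IFNA9. Of 1517 values of the named pathway genes, 1444 kept their direction and side of the threshold, and 73, all of Cth, Nadk, Sesn2, Slc7a5 and Sod3, kept their direction only. Of 999 values of the 9 genes, 3 fell below the threshold (Gclm, Hmox1 and Gsr with library totals), 15 passed it only under the alternative (Nqo1, Hmox1, Srxn1 and Slc7a11) and 15 turned sign without being past it in either fit, 14 for Gclc and 1 for Srxn1 in B16-IFNA4 against B16-GFP. The cause was not tested.

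The types share replicate numbers 1 to 10, but same-numbered tumors deviated together (r over 0.1) in 4 of 30 pairs, with r from −0.27 to 0.30, so the numbers were not taken as pairs. With the replicate block, 6, 6 and 1 of the 9 genes and 71, 62 and 12 of the pathway genes were called in the 3 comparisons, and of the named genes Slc7a5 between the interferon types lost its call. Nqo1 had at most 188 counts in any tumor, which limits its precision.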
